A study of Saccharomyces cerevisiae with 8 samples.

Results

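The 8 genes described here are those of budding yeast (Saccharomyces cerevisiae) that hold siderophore-bound iron at the cell surface or bring it into the cell: FIT1, FIT2 and FIT3, FRE3, ARN1, ARN2, SIT1 and ENB1. They were taken by gene name from a table of 7127 features, and all 8 were found and passed the filter on low values. The 8 poly(A) RNA-seq libraries came from the haploid strain BY4741 grown in rich YPD medium, 2 libraries for each of 4 groups: wild type without drug, wild type with 50 µg/mL hygromycin B, a Trm2 knockout without hygromycin B, and the knockout with 50 µg/mL hygromycin B. Trm2 makes 5-methyluridine in tRNA, and hygromycin B slows translation elongation at the translocation step. Per the labels' protocols every culture began from a single colony, the knockout cultures contained 200 µg/mL Geneticin (wild type is not said to have had it), and cultures given hygromycin B were collected at OD600 0.4, the untreated ones at 0.6 to 0.8. Loss of Trm2 and Geneticin cannot be told apart as sources of a genotype difference, and neither can hygromycin B and harvest density for a drug difference. The iron content of the medium was not given in the sources used here.

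S. cerevisiae makes no siderophores of its own but uses those released by other microbes. The FIT proteins are mannoproteins of the cell wall that retain siderophore iron there. Surface reductases such as Fre3 release the iron from its chelator for the ferrous uptake system, and the ARN-family transporters (Arn1, Arn2, Sit1 and Enb1) carry the intact iron chelate into the cell. All are known targets of Aft1 and Aft2, transcription factors that act when the iron-sulfur cluster signal of the cell is low and that bind DNA at a core of CACCC.

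TRM2 (YKR056W) stood at 116 and 122 normalised FPKM in untreated wild type and at 158 and 152 with hygromycin B, and the 4 knockout libraries all listed it at 0, as labelled. Normalised FPKM are the deposited FPKM (fragments per kilobase of transcript, relative to all mapped fragments), divided by a scale factor per library of 0.611 to 1.44. Markers of the BY4741 genotype were as follows: all 8 libraries had 0 for MET17, URA3 and LEU2, and HIS3, of which the strain lacks an internal stretch, was between 34.4 and 54.1. Of the a-cell genes that mark this mating type, STE2 was between 234 and 709 normalised FPKM and MFA1 and MFA2 were listed at 0 throughout, while BAR1 was at 11.98 and 13.7 in treated wild type and between 89.9 and 162 elsewhere. STE6 was between 68.0 and 167. ASG7 went the other way from BAR1, at 114 and 94.0 in treated wild type and between 18.7 and 49.9 elsewhere. Of the alpha-cell genes, the receptor gene STE3 was between 2.37 and 5.76, MF(ALPHA)1 between 0.455 and 1.78, MF(ALPHA)2 between 7.93 and 12.7, and SAG1 between 23.2 and 30.2. Features with ribosomal DNA names held 2.01% to 19.3% of a library's FPKM and exceeded 10% in 3 libraries: untreated wild-type library 1, untreated knockout library 1 and treated knockout library 2. Read depth was unknown because the table holds no counts.

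The stretches upstream of the 8 genes are shown first because every one of them contained the sequence known to be bound by Aft1 and Aft2. In the RefSeq assembly R64, the 500 bases before the start codon were searched on both strands for GCACCC and for the longer TGCACCC, which contains it. GCACCC was present at least once before 457 of 6000 genes (7.62%) and before all 8 members. TGCACCC was present before 140 of 6000 (2.33%), again including all 8. At least 3 copies of GCACCC were found before 4 of the 6000 genes, and FIT1, FIT2 and FIT3 were 3 of those 4. The genes were matched to R64 by systematic name; the build used for the expression table was not given, and that table holds no coordinates. The sequences are those of the reference and were not read from these cells. They run 5′ to 3′ on the strand of the gene, and capitals mark GCACCC or its reverse complement GGGTGC.
FIT1, chrIV:1505067-1505193, minus strand: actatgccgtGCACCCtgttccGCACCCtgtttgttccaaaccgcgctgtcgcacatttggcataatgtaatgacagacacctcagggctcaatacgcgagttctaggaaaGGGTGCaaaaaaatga
FIT3, chrXV:1061224-1061349, minus strand: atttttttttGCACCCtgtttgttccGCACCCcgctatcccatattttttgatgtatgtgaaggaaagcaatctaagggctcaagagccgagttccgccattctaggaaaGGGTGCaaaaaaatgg
FIT2, chrXV:1059190-1059298, plus strand: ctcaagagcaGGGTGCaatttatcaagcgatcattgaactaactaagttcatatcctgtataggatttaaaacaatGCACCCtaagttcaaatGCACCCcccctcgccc
SIT1, chrV:27459-27484, plus strand: acacatttgaGGGTGCaatctggttc
ENB1, chrXV:21488-21513, minus strand: ttaaattattGCACCCaaatgtgata
ARN1, chrVIII:21215-21240, minus strand: ttatcaaaatGCACCCataaaagcag
ARN2, chrVIII:10645-10670, minus strand: atcagaaaatGGGTGCagttcttagt
FRE3, chrXV:1055109-1055134, plus strand: tttgtaaaatGCACCCatatctcatt

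FIT1 and FIT3 lie on different chromosomes, yet their motifs were placed almost alike. The first match began 283 bases before the start codon in FIT1 and 284 before it in FIT3, the next at 271 and 268, and the inverted one at 182 and 184. The inverted match lay in a run of 25 identical bases, ttctaggaaaGGGTGCaaaaaaatg, which was the longest shared by the upstream stretches of any pair of the 8 genes. The next longest was the 14 bases aaaatGCACCCata of ARN1 and FRE3. These runs were sought only on the strand of each gene, not against the reverse complement. FIT2 had 5 matches in all, of which those not printed lay 475 and 131 bases before its start codon. ENB1 had a further match at 136 bases. A match is a description of letters; binding was not measured.

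**Figure D1:**
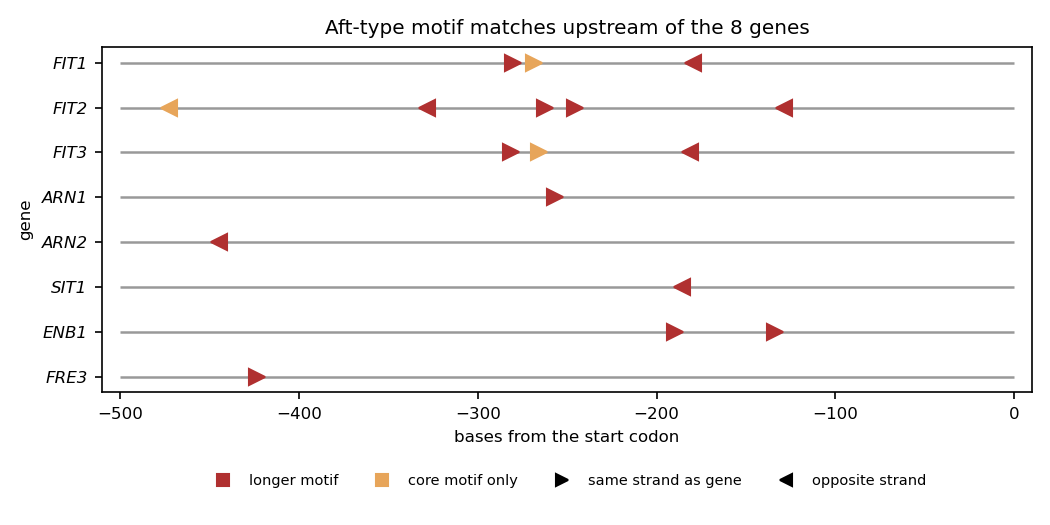
Positions of GCACCC matches in the 500 bases before the start codon of each of the 8 genes (x axis, bases from the start codon). Arrowheads give the strand relative to the gene, red marks matches that extend to TGCACCC, and FIT1, FIT2 and FIT3 hold 3 or more matches each.

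FRE3, FIT2 and FIT3 lie close together on chromosome XV, with the small reading frame YOR381W-A between FRE3 and FIT2. FIT2 and FIT3 point towards each other, with 448 bases between their coding ends, and the strand setting of the counting was not given, so reads past the end of one could be assigned to the other. FIT3 and FRE5, a reductase homologue, are transcribed away from each other, and the 508 bases between them lie upstream of both. None of the 8 genes overlapped another annotated gene, and no 50-base stretch of any of their coding sequences occurred in another coding sequence, so reads of that length would not be divided among family members.

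The order of the 8 genes in untreated wild type ran from FIT2 and FIT3 at the top to FIT1 at the bottom. FIT2 was at 256 and 286 normalised FPKM and FIT3 at 219 and 281. ARN2 was at 66.1 and 75.0, ENB1 at 66.3 and 62.2, and SIT1 at 59.1 and 64.0. ARN1 stood lower at 28.9 and 29.0, FRE3 at 11.8 and 11.6, and FIT1 was the lowest at 4.83 and 5.27. In that order the libraries of FIT2 and FIT3 overlapped, as did those of ARN2 and ENB1 and of ENB1 and SIT1, and the other neighbours were apart. FIT2 held 35.9% and 35.2% of the summed level of the 8 genes in the untreated wild-type libraries, and FIT3 held 30.8% and 34.5%.

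**Figure D2:**
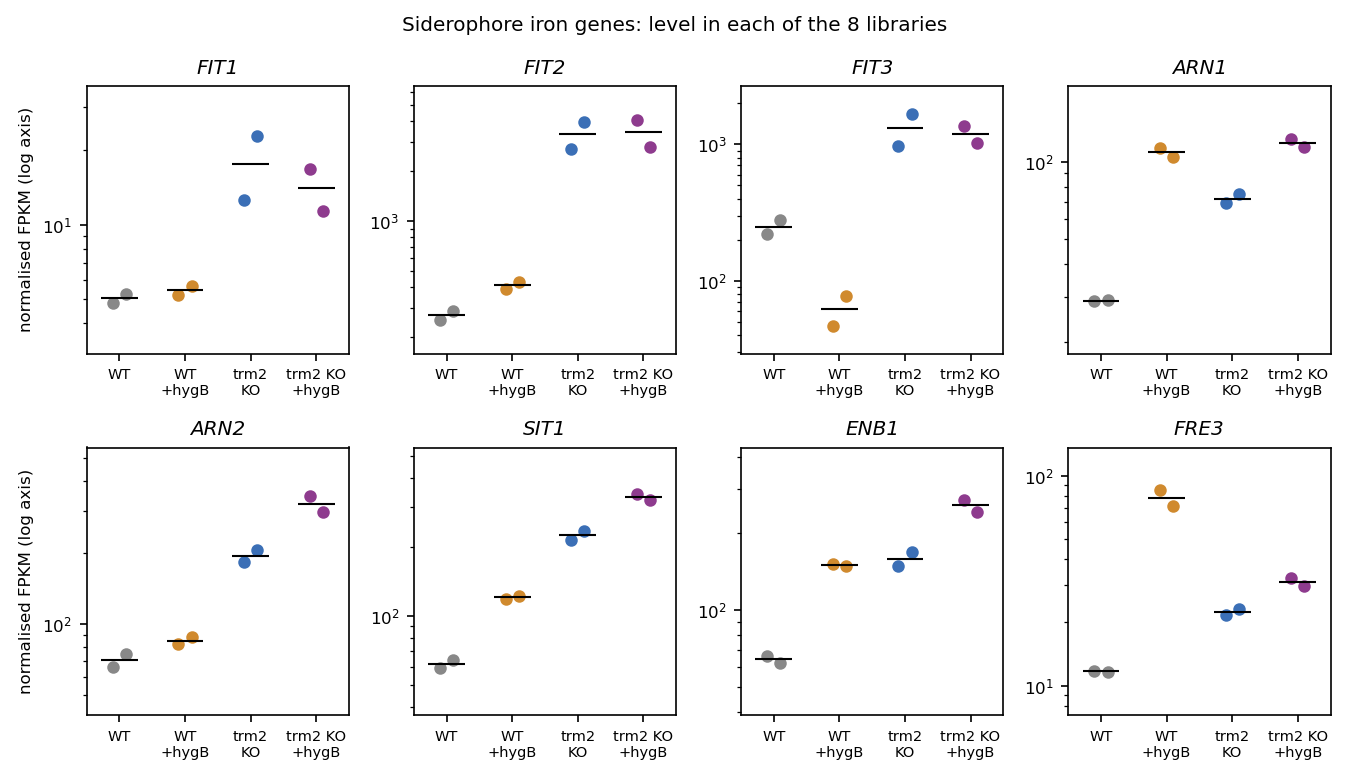
Normalised FPKM (log axis, with its own range in each panel) of the 8 genes in each of the 8 libraries; points are libraries and bars are group means. FIT2 stands at 256 and 286 in untreated wild type and at 2718 and 3978 in the untreated knockout, and FIT3 falls to 46.9 and 77.2 in treated wild type.

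Without hygromycin B all 8 genes were higher in the knockout than in wild type, FIT2 most and FRE3 least. Of all 6439 genes tested, 43.0% were called in either direction in this comparison, 23.2% higher and 19.9% lower (limma adjusted p under 0.05, Benjamini-Hochberg over all genes tested). The median log2 difference of the 8 was 1.51, beside 0.03 over all genes tested. In no member did the libraries of the groups overlap. With 2 libraries a group this is easily met: the flanking genes EFM1 and CSS3, not called here, did not overlap either. The share of all genes without overlap was not computed. Levels in bulk RNA average over the cells of a culture, so fewer cells with a transcript and less RNA per cell cannot be told apart.

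Knockout libraries without the drug had FIT2 at 2718 and 3978 normalised FPKM, against 256 and 286 in wild type. The log2 difference was 3.598 ± 0.23 (SE, adjusted p = 0.000197), the fifth highest of all genes tested, and FIT2 ranked 89 by level among them in the knockout against 887 in wild type. FIT3 was at 966 and 1671 against 219 and 281, a log2 difference of 2.35 ± 0.34 (adjusted p = 0.00263). FIT1 was at 12.6 and 22.8 against 4.83 and 5.27, a log2 difference of 1.57 ± 0.28 (adjusted p = 0.00615). FIT1 thus moved in the same direction at a level far below that of the other FIT genes: FIT2 exceeded FIT1 by 52.9 and 54.3 times in untreated wild type and by 216 and 175 times in the untreated knockout.

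All 4 transporters rose, by 2.42-fold for ARN1 to 3.60-fold for SIT1. SIT1, the ferrioxamine B transporter, reached 214 and 234 normalised FPKM, a log2 difference of 1.85 ± 0.07 (SE, adjusted p = 3.91e-05). ARN2, which takes up triacetylfusarinine C, was at 182 and 205 (log2 1.44 ± 0.11, adjusted p = 0.000304). ENB1, the enterobactin transporter, was at 150 and 169 (2.45-fold, adjusted p = 0.000193). ARN1, the transporter of ferrirubin and related chelates, was at 69.0 and 74.6 (log2 1.28 ± 0.07, adjusted p = 0.000115). The reductase gene FRE3 changed least of the 8, to 21.8 and 23.2 from 11.8 and 11.6 (log2 0.89 ± 0.10, adjusted p = 0.000978). FRE3 did not pass when the 3 libraries with over 10% ribosomal DNA were left out (log2 0.94, adjusted p = 0.0834). That fit had 1 library in each group but treated wild type, whose 2 libraries gave the whole estimate of spread, so nothing is read from calls lost in it. With FPKM as deposited, without scale factors, FIT2, FIT3 and SIT1 passed and the other 5 genes did not, all 8 still being higher (7 of them at an unadjusted p under 0.05).

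Within both knockout groups the FIT genes differed more between the replicate libraries than the other 5 members did. In the untreated knockout, library 2 was higher than library 1 by 1.81 times for FIT1, 1.46 times for FIT2 and 1.73 times for FIT3, whereas ARN1, ARN2, SIT1, ENB1 and FRE3 differed by 1.06 to 1.13 times. In the treated knockout library 1 was the higher, by 1.47, 1.45 and 1.33 times for FIT1, FIT2 and FIT3, against 1.06 to 1.17 times for the others. In all 4 groups FIT1, FIT2, FIT3, ARN2 and SIT1 were higher in the library with the lower ribosomal DNA share. That share was 5.36% against 19.3% in the untreated knockout and 3.75% against 12.2% in the treated one. In untreated wild type it was 2.01% against 15.85%, and FIT1, FIT2 and FIT3 differed by 1.09, 1.12 and 1.28 times. In treated wild type it was 2.39% against 2.68%, too near to bear on this. FIT1, FIT2 and FIT3 differed there by 1.09, 1.10 and 1.65 times, so a wide gap for FIT3 also occurred at nearly equal shares. ARN1, ENB1 and FRE3 were higher in the lower-share library in both knockout groups but not in treated wild type. In untreated wild type ENB1 and FRE3 were lower in that library (0.94 and 0.98 times) and ARN1 was level (1.00 times). With the ribosomal DNA share added as a covariate, 8 of 8 members were called higher without hygromycin B.

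**Figure D3:**
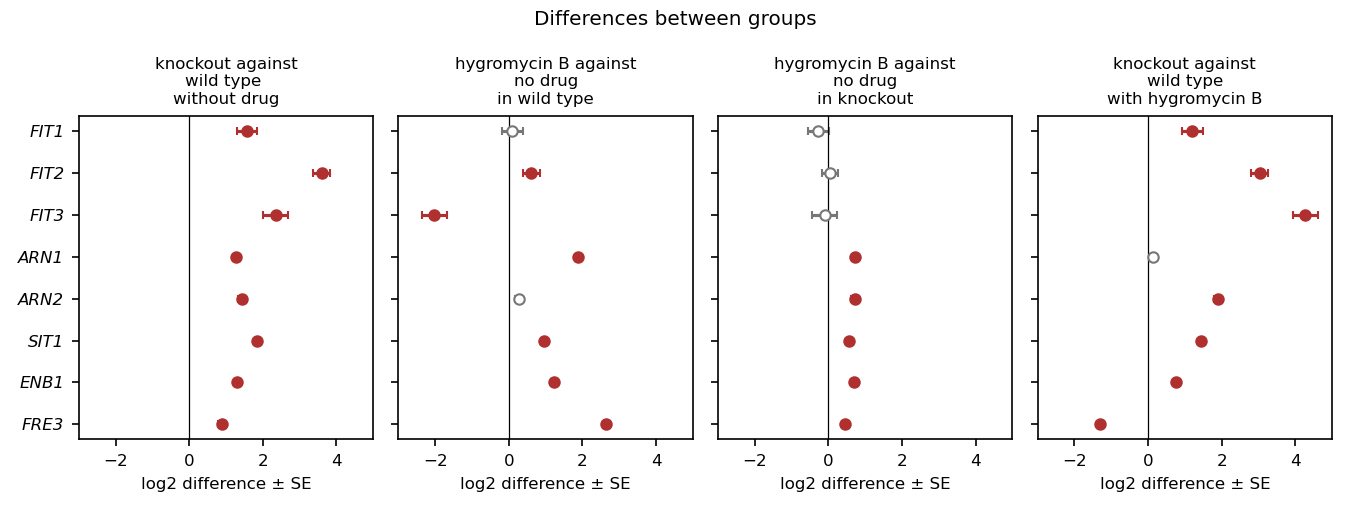
Log2 differences (± SE, limma fit on all 8 libraries) of the 8 genes in 4 comparisons; filled red points have an adjusted p under 0.05 over all genes tested. All 8 lie above 0 for knockout against wild type without drug, and FIT3 at −2.02 and FRE3 at 2.64 are the extremes of the wild-type response to hygromycin B.

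Hygromycin B changed the members in wild type in opposite directions. FRE3, 3 of the 4 transporters and FIT2 rose, FIT3 fell, and FIT1 and ARN2 did not pass. These were 5 higher and 1 lower, in a comparison where 78.7% of all genes were called, 40.4% higher and 38.4% lower, and the median log2 difference was 0.78 for the members and 0.02 over all genes. FRE3 was at 85.2 and 71.5 normalised FPKM with the drug against 11.8 and 11.6 without it, the largest rise of the group (log2 2.64 ± 0.10 SE, adjusted p = 1.91e-06). ARN1 was at 113 and 104 against 28.9 and 29.0 (log2 1.87 ± 0.07, adjusted p = 1.93e-06). Both genes thus reached levels in treated wild type that did not overlap those of untreated cells.

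ENB1 stood at 152 and 149 normalised FPKM with the drug in wild type (log2 1.22 ± 0.08 SE, adjusted p = 1.62e-05). SIT1 was at 118 and 123 (log2 0.96 ± 0.07, adjusted p = 2.17e-05). ARN2 was at 82.1 and 88.2 against 66.1 and 75.0, a log2 difference of 0.27 ± 0.11 that missed the threshold (adjusted p = 0.0523), with a 95% interval from 0.01 to 0.53. With TPM it passed, at log2 0.66 (adjusted p = 0.00575). The ratio of ARN2 to ARN1 was 2.28 and 2.58 in the untreated wild-type libraries and 0.73 and 0.85 with hygromycin B.

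Among the cell wall genes, FIT3 was at 46.9 and 77.2 normalised FPKM with hygromycin B in wild type against 219 and 281 without it, so that it fell by 2.02 on the log2 scale (SE 0.34, adjusted p = 0.00132). FIT2 was at 393 and 432 against 256 and 286 (log2 0.61 ± 0.23, adjusted p = 0.0452). This call was lost on leaving out wild-type library 1 (log2 0.52, adjusted p = 0.162) or library 2 (log2 0.69, adjusted p = 0.0836) of the untreated group, or treated wild-type library 1 (log2 0.67, adjusted p = 0.112) or library 2 (log2 0.54, adjusted p = 0.181), and with the replicate number as a block (adjusted p = 0.0624). FIT1 was at 5.21 and 5.68 against 4.83 and 5.27, and these libraries overlapped (log2 0.09 ± 0.28, adjusted p = 0.78). FIT1, whose upstream matches lie within 3 bases of those of FIT3, thus did not pass where FIT3 fell; its fitted sign turned with quantile normalisation.

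Ratios between members within a library do not depend on the scale factor. FIT2 exceeded FIT3 by 1.17 and 1.02 times in the untreated wild-type libraries and by 8.38 and 5.60 times in the treated ones. In the knockout the ratio was 2.82 and 2.38 without the drug and 2.995 and 2.75 with it. FRE3 stood at 0.20 and 0.18 of SIT1 in untreated wild type, at 0.72 and 0.58 in treated wild type and between 0.09 and 0.10 in the 4 knockout libraries. For all 3 ratios plotted, treated wild type was apart from the other 6 libraries. These ratios draw on the same values as the changes of FIT3, ARN1 and FRE3 above and add no separate evidence.

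**Figure D4:**
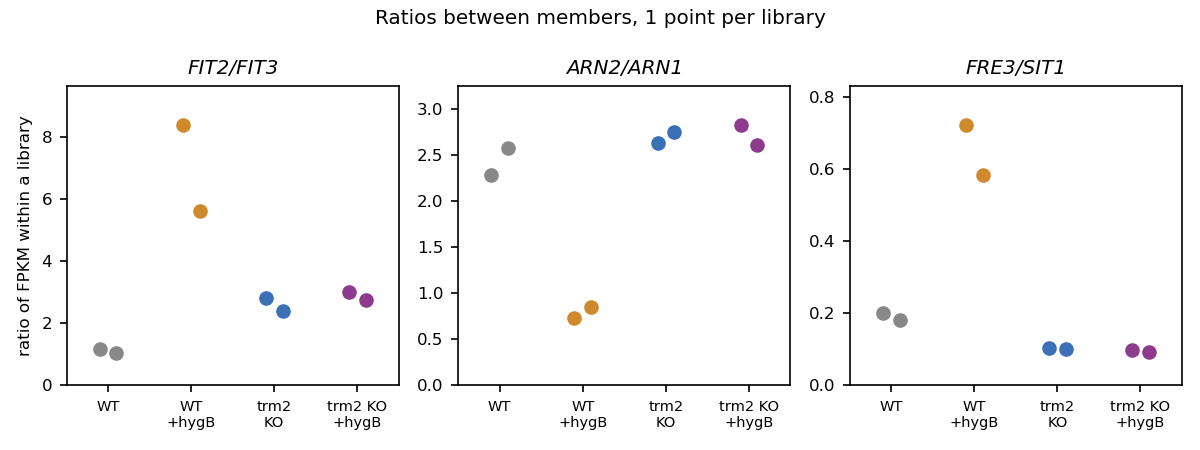
Ratios of FPKM between pairs of members within each library, 1 point per library, linear axes from 0. The treated wild-type libraries have the highest FIT2/FIT3 (8.38 and 5.60) and FRE3/SIT1 (0.72 and 0.58) and the lowest ARN2/ARN1 (0.73 and 0.85).

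In the knockout, hygromycin B raised the reductase and transporter genes further, and the FIT genes did not pass. The count was 5 higher and 0 lower (0 also at an unadjusted p under 0.05), where 43.3% of all genes were called, 20.9% higher and 22.4% lower, with a median log2 difference of 0.50 for the members and −0.02 over all genes. ARN2 was at 347 and 296 normalised FPKM against 182 and 205 (log2 0.73 ± 0.11 SE, adjusted p = 0.003). ARN1 was at 123 and 113 against 69.0 and 74.6 (log2 0.71 ± 0.07, adjusted p = 0.000772). ENB1 was at 271 and 244 (log2 0.69 ± 0.08, adjusted p = 0.00139) and SIT1 at 339 and 320 (log2 0.55 ± 0.07, adjusted p = 0.00164). These libraries were all above those of the untreated knockout.

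FRE3 was at 32.7 and 29.7 normalised FPKM in the treated knockout against 21.8 and 23.2 in the untreated one (log2 0.45 ± 0.10 SE, adjusted p = 0.0107). That call ended without untreated knockout library 1 (log2 0.41, adjusted p = 0.0573) and without treated knockout library 1 (log2 0.39, adjusted p = 0.0673). FIT2 was at 4081 and 2815 against 2718 and 3978, overlapping, with a log2 difference of 0.04 and a 95% interval from −0.51 to 0.59 (adjusted p = 0.892). FIT3 was at 1362 and 1024 against 966 and 1671 (log2 −0.11, interval −0.92 to 0.71, adjusted p = 0.819). FIT1 was at 16.8 and 11.4 against 12.6 and 22.8 (log2 −0.27, interval −0.96 to 0.41, adjusted p = 0.463). With FPKM as deposited 0 of 8 members passed in limma (5 at an unadjusted p under 0.05), and the log2 differences of FRE3 and the transporters were 0.84 to 1.13. Without the 3 libraries with over 10% ribosomal DNA 0 passed (4 at an unadjusted p under 0.05), with differences of 0.48 to 0.75 for those 5 genes, in the fit whose spread came from treated wild type alone. The signs of the 3 FIT genes in this comparison turned under some scalings or on leaving out 1 library.

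Between genotypes under hygromycin B, 6 members were higher in the knockout, FRE3 was lower and ARN1 did not pass. In this comparison 77.3% of all genes were called, 37.1% higher and 40.1% lower, and the median log2 difference was 1.33 for the members and −0.04 over all genes. FIT3, at 1362 and 1024 normalised FPKM in the treated knockout against 46.9 and 77.2 in treated wild type, differed most (log2 4.27 ± 0.34 SE, adjusted p = 4.05e-05) and ranked 7 from the top of all genes tested. FIT2 was 8.2-fold higher (log2 3.04 ± 0.23, adjusted p = 3.32e-05) and FIT1 was 2.31-fold higher (log2 1.21 ± 0.28, adjusted p = 0.00707). With FPKM as deposited the call for FIT1 ended (log2 0.77, adjusted p = 0.162). ARN2 was at 347 and 296 against 82.1 and 88.2 (log2 1.90 ± 0.11, adjusted p = 9.8e-06).

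SIT1 was at 339 and 320 normalised FPKM in the treated knockout against 118 and 123 in treated wild type (log2 1.45 ± 0.07 SE, adjusted p = 5.21e-06), a call that ended with FPKM as deposited (log2 0.94, adjusted p = 0.0841). ENB1 was at 271 and 244 against 152 and 149 (log2 0.77 ± 0.08, adjusted p = 0.000144), a call that ended with TPM (log2 0.45, adjusted p = 0.0562). On the deposited FPKM it did not pass either (log2 0.27, adjusted p = 0.667). ARN1 was at 123 and 113 against 113 and 104, with a log2 difference of 0.12 and a 95% interval from −0.04 to 0.28 (adjusted p = 0.144); it turned to −0.20 with TPM and was called higher with quantile normalisation (log2 0.21, adjusted p = 0.0256). FRE3, by contrast, was at 32.7 and 29.7 against 85.2 and 71.5, 2.46-fold lower (adjusted p = 3e-05). The genotype difference of FRE3 was therefore positive without the drug and negative with it, and the libraries did not overlap in either case.

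The interaction term asks whether the response to hygromycin B differed between the genotypes. It passed for 6 of the 8 members, 2 positive and 4 negative, where 64.5% of all genes were called, 30.6% positive and 33.9% negative. It was −2.19 ± 0.13 (log2, SE, adjusted p = 5.29e-05) for FRE3 and −1.16 ± 0.10 (adjusted p = 0.000133) for ARN1, both of which rose less in the knockout. ENB1 had −0.52 ± 0.11 (adjusted p = 0.00671) and SIT1 had −0.40 ± 0.10 (adjusted p = 0.00982). FIT3 had 1.92 ± 0.48 (adjusted p = 0.0118), having fallen in wild type, and ARN2 had 0.46 ± 0.15 (adjusted p = 0.0346).

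The interaction of FIT2 was −0.56 with a 95% interval from −1.34 to 0.21 (adjusted p = 0.168), and that of FIT1 was −0.37 with an interval from −1.33 to 0.60 (adjusted p = 0.45). The call for ARN2 ended without untreated wild-type library 2, either treated wild-type library, untreated knockout library 1 or treated knockout library 1 (adjusted p between 0.0587 and 0.108). With TPM those of ARN2, SIT1 and ENB1 ended (adjusted p = 0.355, 0.202 and 0.0981), leaving 3 of 8. With FPKM as deposited that of FRE3 alone passed, and ARN1 (log2 −1.36, adjusted p = 0.186) and FIT3 (log2 1.72, adjusted p = 0.086) did not.

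**Figure D5:**
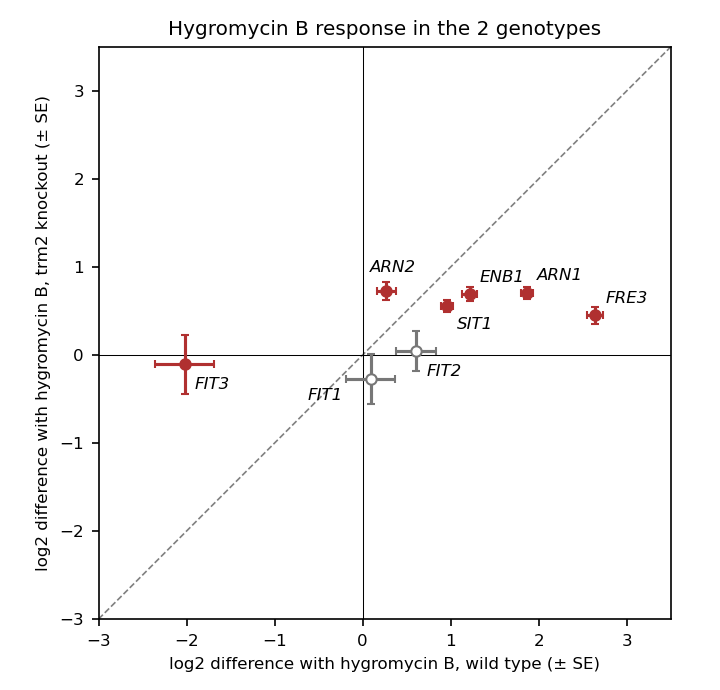
Log2 difference with hygromycin B in wild type (x axis) and in the trm2 knockout (y axis), each ± SE, for the 8 genes; the dashed line marks equal responses and filled red points have an interaction with an adjusted p under 0.05. FRE3, ARN1, ENB1 and SIT1 lie below the line, FIT3 and ARN2 above it.

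The other genes of iron supply were counted in the same comparisons, against the shares of all genes called in each. For reductive uptake, in which iron enters as free ions, 9 of 12 listed genes rose in the knockout without drug and 0 fell, where 23.2% of all genes were higher and 19.9% lower, with a median log2 of 0.58 beside 0.03 over all genes; with TPM it was 3 and 0, and with FPKM as deposited 0 and 0 (2 and 0 at an unadjusted p under 0.05). FET3, the multicopper oxidase, had a log2 difference of 1.40 ± 0.07 (SE, adjusted p = 9.35e-05). FRE1, the main surface reductase, had 1.37 ± 0.06 (adjusted p = 7.04e-05). FRE5, which shares its upstream region with FIT3, had 0.62 ± 0.12 (adjusted p = 0.00849), a call that ended with TPM (adjusted p = 0.196).

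In wild type with hygromycin B, 9 of these 12 reductive genes rose and 1 fell, with a median of 0.96, where 40.4% of all genes were higher and 38.4% lower. The gene that fell was FRE1, from 157 and 173 to 29.2 and 28.2 normalised FPKM (log2 −2.48 ± 0.06 SE, adjusted p = 8.11e-07). FRE1 stood at 475 and 462 in the treated knockout, and its interaction of 2.61 ± 0.08 had the same sign as that of FIT3 (adjusted p = 8.49e-06). FRE5 rose in treated wild type (log2 0.80 ± 0.12, adjusted p = 0.00086) where its neighbour FIT3 fell. In the knockout with hygromycin B 5 of the 12 rose and 2 fell, where 20.9% of all genes were higher and 22.4% lower. The interaction was positive for 1 and negative for 8, beside 30.6% and 33.9% of all genes.

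The genes of the Aft regulators themselves did not pass between genotypes without the drug. AFT1 was at 67.7 and 73.5 normalised FPKM in untreated wild type and at 79.1 and 80.9 in the untreated knockout (log2 0.18 ± 0.06 SE, adjusted p = 0.0617), and AFT2 at 61.1 and 70.0 against 75.3 and 74.1 (log2 0.19 ± 0.08, adjusted p = 0.101); with TPM both differences were slightly below 0. With hygromycin B in wild type AFT1 had a log2 difference of 0.75 ± 0.06 (adjusted p = 4.85e-05) and AFT2 of 1.12 ± 0.08 (adjusted p = 2.24e-05). In the knockout neither passed with the drug (adjusted p = 0.0594 and 0.587). Both genes encode the factors whose motif is printed above, and RNA level does not measure their activity.

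Of 14 listed genes of Aft1/2 regulation and iron sparing, 7 were higher and 3 lower in the knockout without drug (all genes 23.2% and 19.9%), at a median of 0.20 (−0.10 for FPKM as deposited, where 0 were higher and 0 lower, or 1 and 0 at an unadjusted p under 0.05). TIS11, an mRNA-decay factor for transcripts of iron-dependent enzymes, had a log2 difference of 1.54 ± 0.11 (SE, adjusted p = 0.000249), and HMX1, the haem oxygenase, had 0.97 ± 0.11 (adjusted p = 0.00106). In wild type with hygromycin B 11 of the 14 were higher and 2 lower (all genes 40.4% and 38.4%), TIS11 at log2 2.97 ± 0.11 (adjusted p = 1.88e-06). Between the genotypes with the drug 5 were higher and 7 lower, beside 37.1% and 40.1% of all genes. CCC1, which stores iron in the vacuole and is induced by high iron through Yap5, was slightly lower in the knockout without drug (log2 −0.22 ± 0.04, adjusted p = 0.00648), a call that ended with TPM (adjusted p = 0.123); of the 3 Yap5-response genes listed, 0 were higher and 1 lower.

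TGCACCC was found upstream of 10 of the 12 reductive uptake genes, of 4 of the 14 regulatory and sparing genes, and of none of 11 related transporters or 18 other cell wall mannoproteins. FRE1 is among the reductive genes without it. Over all 6000 genes searched the share with TGCACCC was 2.33%. At that share, none in lists of 11 and 18 is not read as a lack of the motif. In all, 127 tested genes other than the 8 had TGCACCC in that window, including the 10 reductive and 4 regulatory or sparing genes just counted. Of the 127, 27.6% were called higher and 18.1% lower in the untreated knockout, beside 23.2% and 19.9% of all genes. In treated wild type 55.9% were higher and 26% lower, beside 40.4% and 38.4%. With the drug in the knockout 29.9% were higher and 15.7% lower, beside 20.9% and 22.4%. Between the treated genotypes 29.9% of them were higher and 53.5% lower in the knockout, beside 37.1% and 40.1% of all genes, and their interaction was positive for 25.2% and negative for 50.4%, beside 30.6% and 33.9%.

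Related genes without a siderophore role were compared in the same way. Of the ARN-family and other DHA2 transporters, GEX1 and VBA3 did not pass the filter. Of the 9 tested, 4 were higher and 2 lower in the knockout without drug (all genes 23.2% and 19.9%), with a median log2 of 0.10 that was −0.13 with TPM. AZR1, a transporter of azoles, had the largest change, from 17.8 and 17.9 to 163 and 151 normalised FPKM (log2 3.07 ± 0.07 SE, adjusted p = 3.7e-06). With hygromycin B in wild type AZR1 fell, to 5.97 and 6.68 (log2 −1.36 ± 0.07, adjusted p = 4.67e-06), the direction of FIT3 and FRE1, a call that ended with FPKM as deposited (adjusted p = 0.113). Of 18 other cell wall mannoproteins 1 was higher and 6 were lower in the untreated knockout, where the same shares of all genes apply, with a median of −0.19.

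In wild type with hygromycin B 3 of the 18 mannoproteins were higher and 12 lower, beside 40.4% and 38.4% of all genes, with a median of −1.302. SRL1 had a log2 difference of −5.14 ± 0.20 (SE, adjusted p = 2.37e-06) and CIS3 one of −5.09 ± 0.17 (adjusted p = 1.55e-06). FIT3, at −2.02, thus lay on the side of most other wall genes, and FIT2, at 0.61, on the other. The interaction was positive for 9 of the 18 and negative for 3 (all genes 30.6% and 33.9%), with a median of 0.92, beside 1.92 for FIT3.

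The genes that flank the members were compared first between the genotypes without drug. Of 13 outside the 8, 2 were called higher in the untreated knockout, beside 23.2% of all genes: FRE5 and HPA3, an acetyltransferase gene that precedes SIT1 on the same strand (HPA3 log2 0.47 ± 0.07 SE, adjusted p = 0.00369). The others did not pass. HPA3 ended with TPM (adjusted p = 0.478). HSP31, next to FIT1, had a log2 difference of −0.06 ± 0.09 (adjusted p = 0.603), EFM1, which is divergent from ARN1, had −0.06 ± 0.05 (adjusted p = 0.346), and CSS3, next to ENB1, had 0.09 ± 0.07 (adjusted p = 0.328). With hygromycin B in wild type AVT2 was called lower, IMA2 and YOR381W-A did not pass, and the others were called higher. Of all genes 40.4% were higher and 38.4% lower. The interaction was positive for AVT2, did not pass for FRE5, PAU13, IMA2 and YOR381W-A, and was otherwise negative (all genes 30.6% and 33.9%). RDR1, next to FRE3, had −1.12 and CSS3 −0.98, the sign of the adjacent member. COS8, next to ARN2, had −0.85 and AVT2, next to SIT1, 0.76, the opposite sign. YOR381W-A, between FRE3 and FIT2, ranged from a listed 0 to 26.9 normalised FPKM, with no call in any comparison on that scale or with quantile normalisation. With FPKM as deposited YOR381W-A was called higher with the drug in wild type (log2 2.26, adjusted p = 4.23e-06), lower in the treated knockout than in treated wild type (log2 −2.56, adjusted p = 1.41e-07) and negative for the interaction (log2 −3.70, adjusted p = 3.36e-07). With TPM these 3 passed too, as did a fall with the drug in the knockout (log2 −1.37, adjusted p = 0.0492). On the normalised scale the libraries of YOR381W-A overlapped between the groups in each comparison, and the SE of each group difference was 1.70. Its untreated wild-type libraries alone were at 26.9 and 0, so nothing is read from these calls.

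The genes outside the 8 whose pattern was most like the mean of the members were ranked by Pearson r over the 8 libraries, among 2424 genes with at least 10 normalised FPKM and a 2-fold range of group means. YLR126C had r = 0.99, with 54.7 and 59.8 normalised FPKM in untreated wild type and 117 and 126 in the untreated knockout. YLR046C and YLL056C followed with r = 0.98 each, then POL12, a subunit of DNA polymerase alpha, with 0.98, and ESC8 with 0.97. FRE3 was the member least like that mean (r = 0.21) and SIT1 the most (r = 0.99). These values describe likeness over libraries that fall into 4 groups of 2, and no p is attached.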

How the data were processed

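Poly(A) RNA-seq libraries, 2 for each of 4 groups taken from the sample titles, were analysed from 1 table of FPKM that the authors deposited, with 1 column per library. The submitters' processing notes name RSEM 1.3.3, STAR 2.7.8a, FastQC 0.11.8 and cutadapt 2.3, while genome build, annotation and strand setting are not given in the sources used here. The series calls the libraries biological duplicates. FPKM were divided by a median-ratio factor per library, and log2(normalised FPKM + 1) was modelled by limma 3.58.1 (R 4.3.3) for 6439 genes whose mean FPKM reached 1 (1 mean per group, mean-variance trend, 4 residual and 6.39 moderated degrees of freedom). Tests were two-sided, with Benjamini-Hochberg adjustment over all genes and a threshold of 0.05. The added 1 makes the log2 differences of low genes such as FIT1 too small, and every difference is relative to a library's other genes. The fit was tested on simulated data. Low values were searched for whole-read steps at each gene's length, with a best periodicity of 0.148 to 0.294 and no usable step, so depth stayed unknown and no counting interval was computed. No column was left unused. Comparisons share libraries: untreated wild type is the control of both the knockout and the wild-type drug comparison. The members and lists were chosen with earlier results of these data known. The text names all 8 members, TRM2, up to 4 genes per list and comparison with the smallest p among those called, AFT1 and AFT2, the nearest gene on each side of each member, and the 5 genes most like the members' mean pattern. Alternatives were 3 other scalings, 2 pseudocounts, 2 filters, no trend, 2 groups at a time, a replicate block, and each library left out; after seeing the data, 3 were added for the ribosomal DNA share. Sequences are from RefSeq assembly R64 (6047 of 7127 identifiers matched).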

Additional observations from a re-analysis of the deposited data

Results flagged for a closer look

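By the interaction term of the limma fit, the response to hygromycin B differed between wild type and knockout for 6 of the 8 genes. Of all 6439 genes tested, 64.5% were called. The count is near that share and is not read as particular to the 8. FRE3 (log2 −2.19), ARN1 (−1.16), ENB1 (−0.52) and SIT1 (−0.40) rose less in the knockout than in wild type. FIT3 (log2 1.92) fell in wild type and did not pass in the knockout, and ARN2 (0.46) rose in the knockout and missed the threshold in wild type. Those of FRE3, ARN1 and FIT3 passed with TPM and with quantile normalisation, and without each single library. With FPKM as deposited FRE3 passed, and ARN1 (log2 −1.36, adjusted p = 0.186) and FIT3 (log2 1.72, adjusted p = 0.086) did not.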

How the results depend on the processing

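The number of members called without hygromycin B was 8 in each fit that left out 1 library; it was 3 with FPKM as deposited and 7 to 8 otherwise. For hygromycin B in the knockout it was 4 to 5 when 1 library was left out, 0 with FPKM as deposited and 0 without the 3 libraries with over 10% ribosomal DNA. Between genotypes with the drug it was 7 when 1 library was left out and 4 with FPKM as deposited. For the interaction it was 5 to 6 when 1 library was left out, 1 with FPKM as deposited, 3 with TPM and 3 without the ribosomal DNA-rich libraries. For hygromycin B in wild type it stayed at 5 to 7. Relative to the scaled values, FPKM as deposited moved the median of all genes to −0.26, 0.61, 0.36, −0.53 and −0.24 in the 5 comparisons in the order of the text, and the genes called without drug from 2771 (53.8% higher) to 163 (14.1% higher). TPM gave 1032 (11.4% higher), the fit without the ribosomal DNA-rich libraries 154, and leaving out 1 library 1681 or more. For hygromycin B in the knockout the 2787 genes became 105, 1513 and 80 in those 3 fits, and at least 1470 on leaving out 1 library. In treated wild type 5070 became 2550 with FPKM as deposited, 4976 between treated genotypes became 2128, and the interaction's 4153 became 469, 2238 with TPM and 1718 without the ribosomal DNA-rich libraries. The fit without the ribosomal DNA-rich libraries took its spread from the 2 treated wild-type libraries alone. The causes were not tested.

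Signs that turned belonged to differences that had not passed. FIT1 with hygromycin B in wild type was −0.21 with quantile normalisation and −0.15 with the ribosomal DNA share as a covariate. In the knockout the value for FIT1 turned to 0.10 for FPKM as deposited and to 0.0058 for TPM (−0.68 to 0.13 leaving out 1 library), and FIT2 was −0.095 with the covariate (−0.23 to 0.32). FIT3 was 0.30 with FPKM as deposited, 0.20 with TPM, 0.16 with quantile normalisation and 0.12 with TPM without ribosomal DNA features (−0.50 to 0.29). ARN1 between treated genotypes was −0.38, −0.20 and −0.12 with FPKM as deposited, TPM and TPM without ribosomal DNA features, and passed at 0.21 with quantile normalisation (adjusted p = 0.0256). The interaction of FIT1 was −0.77 to 0.038 leaving out 1 library.

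The replicate numbers did not pair the libraries: deviations of same-numbered libraries correlated between −0.232 and 0.256. With the replicate number as a block the counts of members called were 8, 5, 5, 7 and 6; FIT2 in treated wild type missed the threshold (adjusted p = 0.0624). Groups of 2 libraries, unknown depth and the choice of scaling limit all values.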
